A study of Mus musculus with 12 samples.

Results

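The 9 genes described here carry out inflammasome signalling and pyroptosis in the mouse: the sensors Nlrp3 and Aim2, the adaptor Pycard (ASC), the inflammatory caspases Casp1 and Casp4 (the latter often called caspase-11 in mice), the pore-forming gasdermin Gsdmd, the membrane rupture protein Ninj1, and the cytokines Il1b and Il18. They were chosen by name for their place in this pathway and found by gene identifier. All 9 of 9 were among the 52636 genes listed, and all 9 passed the filter on low counts that left 17970 genes for testing.

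The samples are 12 whole tumors of the 2153L line, which derives from a genetically engineered mouse and is labelled triple-negative breast cancer. The tumors grew in the mammary fat pads of Balbc females. Tumor cells had been transduced with an empty vector (EV) or with p53ERTAM, a tamoxifen-inducible p53 that the study uses to restore p53 function. Mice received vehicle, or a combination (combo) of ORIN1001 at 150 mg/kg daily and docetaxel at 20 mg/kg weekly, for 8 days. ORIN1001 blocks the RNase activity of IRE1α, a sensor of unfolded protein in the endoplasmic reticulum, and docetaxel stabilises microtubules. The 4 groups of 3 tumors were thus EV with vehicle, EV with combo, p53ERTAM with vehicle and p53ERTAM with combo. The labels give neither the ages of the mice nor which of them received tamoxifen, and they do not say whether a line is 1 clone or whether the 3 tumors of a group came from separate mice. P-values therefore measure the spread between these samples only.

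Inflammasomes are cytosolic complexes in which a sensor of infection or damage recruits caspase-1 through the adaptor ASC. The caspase matures interleukin-1β and interleukin-18 and cuts gasdermin D, whose freed end forms pores in the plasma membrane, and NINJ1 then ruptures the membrane. Caspase-11 cuts gasdermin D directly when it binds bacterial lipopolysaccharide in the cytosol. Most of this machinery is best known from macrophages and other myeloid cells, and much of its activity is set by cleavage and assembly of proteins, which RNA does not measure.

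Libraries held 13484873 to 24424964 counts. The 3 EV combo libraries stood apart: the noncoding gene Gm26917 took 10.7 to 11.1% of their counts against 0.133 to 1.10% in the other 9, protein-coding genes took 80.9 to 81.7% against 86.7 to 95.8%, and genes of the mitochondrial genome 0.703 to 0.957% against 1.43 to 2.16%. This make-up and the group cannot be told apart, and it touches each comparison that uses EV combo. Replicate 2 of p53ERTAM vehicle had the fewest counts, the highest share of the noncoding gene Malat1 (2.43%) and 86.7% protein-coding counts against 92.3 and 94.0% in the other tumors of its group, and the calls of the 9 genes that end without it are named beside each comparison. Esr1, whose hormone-binding domain is part of the p53ERTAM fusion, averaged 8.85 CPM (counts per 1000000 counts of a library) in EV vehicle, 10.02 in EV combo, 31.2 in p53ERTAM vehicle and 39.2 in p53ERTAM combo, so the libraries labelled p53ERTAM were higher in both treatments. Epcam, which defines epithelium, averaged 742 to 1386 CPM by group. Pgr averaged 0.157 to 0.793 CPM, whereas Erbb2 was at 214 to 306 CPM.

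The promoters of the genes that rose with combo in p53ERTAM tumors (Casp1, Casp4 and Pycard), and of Nlrp3, which was higher in p53ERTAM tumors under both treatments, are shown for their sequence context. Each run is the 250 bases before the RefSeq start site on the gene's own strand in GRCm38.p6, with a match to the p53 half-site consensus in capitals. Casp1 and Casp4 are neighbours on chromosome 9 with 1562 bases between them, both on the plus strand.
Casp1, chr9:5298267-5298516, plus strand: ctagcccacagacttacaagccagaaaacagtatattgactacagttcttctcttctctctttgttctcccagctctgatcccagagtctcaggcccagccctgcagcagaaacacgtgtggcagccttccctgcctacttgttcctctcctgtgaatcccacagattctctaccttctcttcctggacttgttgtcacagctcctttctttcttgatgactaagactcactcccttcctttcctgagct
Casp4, chr9:5308599-5308848, plus strand: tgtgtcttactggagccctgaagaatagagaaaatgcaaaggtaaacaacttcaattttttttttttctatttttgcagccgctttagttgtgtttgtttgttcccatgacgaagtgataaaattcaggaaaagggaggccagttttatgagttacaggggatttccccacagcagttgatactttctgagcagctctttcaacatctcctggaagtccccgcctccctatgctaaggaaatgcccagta
Pycard, chr7:127993868-127994117, minus strand: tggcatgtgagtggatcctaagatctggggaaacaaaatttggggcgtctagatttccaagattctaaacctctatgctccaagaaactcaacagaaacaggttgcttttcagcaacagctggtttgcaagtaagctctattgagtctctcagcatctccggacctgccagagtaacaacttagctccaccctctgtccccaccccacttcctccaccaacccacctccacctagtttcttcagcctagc
Nlrp3, chr11:59541319-59541568, plus strand: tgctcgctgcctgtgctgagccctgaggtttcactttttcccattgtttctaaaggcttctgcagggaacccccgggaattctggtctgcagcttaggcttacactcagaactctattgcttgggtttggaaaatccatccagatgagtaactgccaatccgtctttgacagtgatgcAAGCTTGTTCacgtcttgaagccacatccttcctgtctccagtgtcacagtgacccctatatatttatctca

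Of the 9 genes, 8 had a RefSeq promoter entry, with 10 windows of 300 bases in all (250 before and 50 after the start), and Gsdmd had none in the table. Nlrp3 and Casp4 have 2 start sites each there, at 59541569 and 59542686 for Nlrp3 and at 5308849 and 5308860 for Casp4, and the run shown is that of the site nearer to the start of the gene as deposited. Both strands were searched for the interferon-stimulated response element (GAAA, any 2 bases, then GAAA, in 3.43% of 32817 windows of all genes), the gamma-activated sequence (TTCNNNGAA, in 8.29%) and the p53 half-site (in 8.36%). Of the 2 Nlrp3 windows 1, the one shown, held a p53 half-site match, AAGCTTGTTC, that begins at base -72 from the start site. The Pycard window held AAACTAGTTT, 38 bases after the start site and so outside the stretch printed. No other window of these genes held a match to any of the 3 motifs. A functional p53 site usually needs a pair of such matches, and a match is a description of letters, not a site.

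In p53ERTAM tumors combo raised both inflammatory caspases and the adaptor. Casp1 was 2.06-fold, Casp4 2.01-fold and Pycard 2.59-fold higher than with vehicle, and these 3 of the 9 genes (33.3%) passed edgeR's quasi-likelihood test at an adjusted p below 0.05, where 3.30% of all genes tested were called higher, 2.98% lower and 6.28% in either direction. All 9 log2 fold changes were above 0, with a median of 0.75 beside 0.00 over all genes tested, and in 8 of 9 the groups did not overlap, as in 33.3% of all genes. The calls rested on few libraries. None of the 9 genes was called without p53ERTAM vehicle replicate 1 or replicate 2, or without p53ERTAM combo replicate 1 or replicate 3, where the adjusted p was 0.083, 0.0696, 0.0885 and 0.107 for Casp1, 0.107, 0.0841, 0.0934 and 0.138 for Casp4, and 0.0941, 0.0818, 0.103 and 0.109 for Pycard. Casp4 also lost its call without p53ERTAM combo replicate 2 (0.056) and when EV combo was left out of the fit (0.0524). Over all genes the calls in this comparison fell from 1129 to between 77 and 183 without one of those 4 libraries.

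In EV tumors combo lowered Ninj1 to 0.634-fold of its vehicle level and no other of the 9 genes was called. That is 1 of 9 (11.1%) in a comparison that called 39.9% of all genes tested, 21.1% as lower. The median log2 fold change of the 9 genes was 0.08 beside -0.07 over all genes, and the groups did not overlap in 4 of them against 50.2% of all genes. Casp4 (adjusted p = 0.0342) and Nlrp3 (0.0288) were called higher by DESeq2, and also by edgeR with protein-coding genes only (0.0316 and 0.0391). Nlrp3 was called without EV vehicle replicate 2 (0.015), and Casp4 without p53ERTAM vehicle replicate 1 (0.0431).

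Between the vectors under vehicle, p53ERTAM tumors had higher Nlrp3 (2.43-fold), Casp4 (1.77-fold) and Gsdmd (1.54-fold) and lower Pycard (0.365-fold). These 4 of 9 (44.4%) stand beside 37.8% of all genes, 17.9% higher and 19.8% lower. The groups did not overlap in the same 4 genes, against 45.1% of all genes. Gsdmd lost its call without p53ERTAM vehicle replicate 2 (adjusted p = 0.0534), and Casp4 lost it without EV vehicle replicate 1 (0.0528) or p53ERTAM vehicle replicate 3 (0.0651). Neither Casp4 (0.0719) nor Gsdmd (0.0591) passed when only these groups entered the fit, nor did Casp4 by limma-voom with quality weights (0.107).

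Under combo, p53ERTAM tumors exceeded EV tumors in 6 of 9 genes (66.7%): Casp4 (2.38-fold), Aim2 (2.42-fold), Nlrp3 (2.36-fold), Ninj1 (2.22-fold), Gsdmd (2.06-fold) and Il1b (1.98-fold). Of all genes 44.1% were called here, 22.1% as higher. All 9 genes had groups that did not overlap, against 63.2% of all genes, and the median log2 fold change was 1.15 beside 0.06. Aim2 lost its call without EV combo replicate 1 (adjusted p = 0.093), EV combo replicate 2 (0.0897), p53ERTAM combo replicate 2 (0.0609) or p53ERTAM combo replicate 3 (0.0633). Leaving out EV combo replicate 1 (0.056), EV combo replicate 3 (0.0612) or p53ERTAM combo replicate 1 (0.0507) ended the call of Il1b. The comparisons share groups, so they are not independent: EV combo, for example, enters both this one and the effect of combo in EV tumors.

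The effect of combo itself differed between the vectors for Pycard and Ninj1. The interaction, the log2 fold change in p53ERTAM minus that in EV tumors, was 2.10 (SE 0.422, adjusted p = 0.00253) for Pycard and 0.95 (SE 0.231, adjusted p = 0.00707) for Ninj1. These 2 of 9 (22.2%) stand beside 36.0% of all genes, 18.8% in the positive direction, and the median of the 9 was 0.67 beside 0.13. For the other 7 genes the difference between the vectors did not pass, Casp1 (adjusted p = 0.121) and Casp4 (0.339) included, so their response to combo is not shown to differ between vectors. Both calls held without any one of the 12 libraries.

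**Figure D1:**
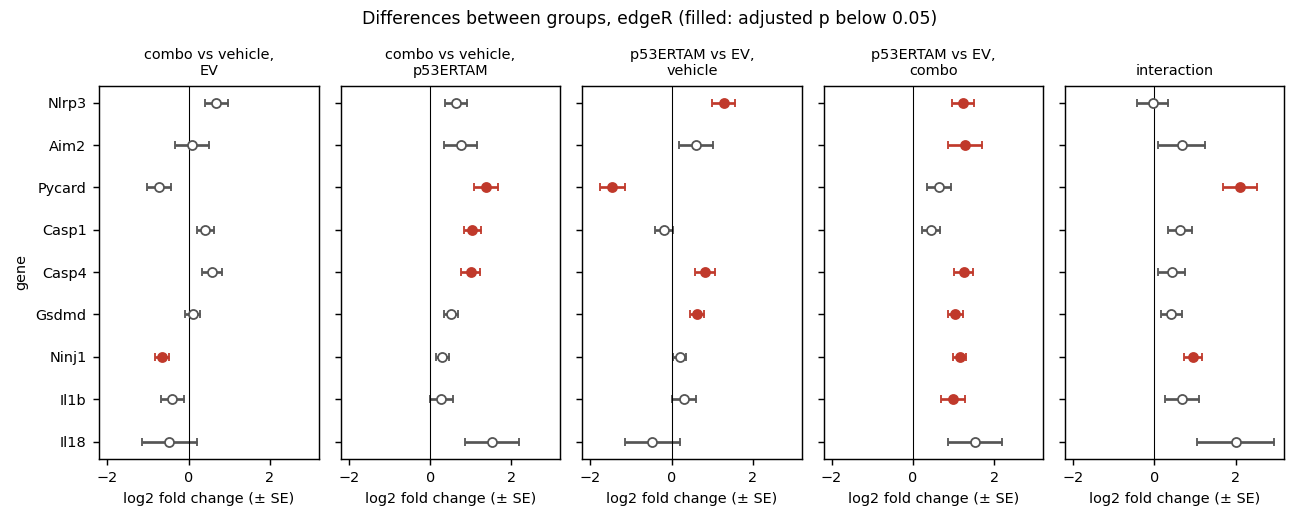
Log2 fold change (x axis, bars are SE) of each of the 9 genes (y axis) in the 5 comparisons, with filled red points for adjusted p below 0.05. Filled points are at Ninj1 for combo in EV tumors, at Casp1, Casp4 and Pycard for combo in p53ERTAM tumors, at 4 genes between vectors under vehicle, at 6 genes between vectors under combo, and at Pycard and Ninj1 for the interaction.

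Levels of the single genes follow in CPM, by replicate number within a group.

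Nlrp3 (chr11:59541568-59566956, plus strand, GRCm38) encodes the sensor that responds to membrane damage and ion efflux. Its level was 2.99, 4.57 and 2.15 CPM in EV vehicle, 6.17, 4.02 and 5.28 in EV combo, 6.78, 10.2 and 7.92 in p53ERTAM vehicle, and 13, 13.2 and 13.4 in p53ERTAM combo. All 6 p53ERTAM tumors lay above all 6 EV tumors, and within p53ERTAM the 3 combo tumors lay above the 3 vehicle tumors. The log2 difference between vectors was 1.28 (SE 0.278, adjusted p = 0.00323) under vehicle and 1.24 (SE 0.272, adjusted p = 0.00274) under combo. The interaction was -0.04 (SE 0.38, adjusted p = 0.946). The change with combo was 0.68 in EV (adjusted p = 0.0689) and 0.63 in p53ERTAM tumors (0.161), and neither passed in the edgeR fit over all genes and libraries. Without EV vehicle replicate 2, the highest EV vehicle tumor, the EV change was 1.03 and passed (adjusted p = 0.015). By limma-voom with quality weights the p53ERTAM change was 0.81 and passed (adjusted p = 0.00777).

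Aim2 (chr1:173350879-173466040, plus strand) encodes the sensor of double-stranded DNA in the cytosol. Tumors had 1.98, 3.41 and 1.42 CPM in EV vehicle, 1.44, 1.46 and 4.32 in EV combo, 3.34, 4.30 and 3.31 in p53ERTAM vehicle, and 5.52, 6.75 and 6.59 in p53ERTAM combo. The 3 p53ERTAM combo tumors lay above all others, while EV combo replicate 3 lay well above the other EV combo tumors and at the level of p53ERTAM vehicle. Under combo the vectors differed by 1.28 on the log2 scale (SE 0.414, adjusted p = 0.0236). With vehicle the difference was 0.61 (adjusted p = 0.269), and combo in p53ERTAM tumors gave 0.75 (adjusted p = 0.274).

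Pycard (chr7:127989708-127993867, minus strand) encodes ASC, the adaptor that links sensors to caspase-1. The level was 6.84, 5.87 and 6.95 CPM in EV vehicle, 4.43, 3.19 and 4.20 in EV combo, 1.75, 2.52 and 3.31 in p53ERTAM vehicle, and 7.61, 4.65 and 7.78 in p53ERTAM combo. EV vehicle and p53ERTAM combo were high and overlapped, and EV combo and p53ERTAM vehicle were low and overlapped, so the order of the treatments turned over between the vectors. Combo gave a log2 fold change of -0.73 in EV tumors (SE 0.295, adjusted p = 0.063) and 1.37 in p53ERTAM tumors (SE 0.302, adjusted p = 0.0231). With vehicle the difference of p53ERTAM from EV was -1.45 (SE 0.303, adjusted p = 0.00257), and under combo it was 0.65 (adjusted p = 0.0884). Of the 3800 exon bases counted for Pycard, 485 are shared with Gm45205 on the opposite strand. Whether the counting used strand is not given in the sources used here, so reads of the pair cannot be told apart in that stretch.

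Casp1 (chr9:5298517-5307265, plus strand) encodes the protease that matures both cytokines and cuts gasdermin D. Casp1 was at 6.07, 8.80 and 6.61 CPM in EV vehicle, 8.81, 9.49 and 10.3 in EV combo, 5.96, 6.53 and 7.45 in p53ERTAM vehicle, and 14.5, 10.7 and 16.8 in p53ERTAM combo. The p53ERTAM combo tumors were above all others, and replicate 2 was the lowest of them and close to EV combo. With combo Casp1 rose by 1.04 on the log2 scale in p53ERTAM tumors (SE 0.216, adjusted p = 0.0192). In EV tumors the difference was 0.41 (SE 0.215, adjusted p = 0.145). The vectors differed by -0.18 under vehicle (adjusted p = 0.53) and 0.44 under combo (adjusted p = 0.105), neither of which passed.

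Casp4 (chr9:5308828-5336783, plus strand) encodes the noncanonical caspase that binds lipopolysaccharide. Levels were 3.90, 6.04 and 5.92 CPM in EV vehicle, 8.39, 7.21 and 8.12 in EV combo, 7.09, 10.4 and 12.3 in p53ERTAM vehicle, and 18.9, 19.03 and 23.3 in p53ERTAM combo. The p53ERTAM combo tumors stood clear of the rest, and EV vehicle was the lowest group and overlapped no other. Combo raised Casp4 by 1.004 in p53ERTAM tumors (SE 0.234, adjusted p = 0.028), while the 0.58 in EV tumors (SE 0.24) did not pass (adjusted p = 0.0702). The vectors differed by 0.83 with vehicle (SE 0.239, adjusted p = 0.0156) and by 1.25 with combo (SE 0.236, adjusted p = 0.000989).

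Gsdmd (chr15:75862339-75867404, plus strand) encodes the pore of pyroptosis. Gsdmd stood at 7.81, 10.9 and 7.98 CPM in EV vehicle, 10.6, 8.38 and 9.43 in EV combo, 15.1, 15.9 and 12.5 in p53ERTAM vehicle, and 20.6, 23.3 and 19.7 in p53ERTAM combo. Every p53ERTAM tumor lay above every EV tumor, and p53ERTAM combo lay above p53ERTAM vehicle, whereas the EV groups overlapped. The vector difference was 0.63 with vehicle (SE 0.179, adjusted p = 0.0148) and 1.05 with combo (SE 0.18, adjusted p = 0.00052). Combo gave 0.51 in p53ERTAM tumors (SE 0.177), which did not pass by edgeR (adjusted p = 0.0952) but did by DESeq2 (0.0341) and limma-voom (0.0203). In EV tumors it gave 0.10 (adjusted p = 0.706).

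Ninj1 (chr13:49187485-49196244, plus strand) encodes the protein that ruptures the plasma membrane late in lytic death. Ninj1 measured 41.4, 38.4 and 53.1 CPM in EV vehicle, 28.8, 23.6 and 32.2 in EV combo, 43.9, 59.0 and 58.5 in p53ERTAM vehicle, and 67.5, 64.8 and 70.8 in p53ERTAM combo. The EV combo tumors lay below all others and the p53ERTAM combo tumors above all others, and the vehicle groups of both vectors overlapped. Combo lowered Ninj1 in EV tumors, with a log2 fold change of -0.66 (SE 0.165, adjusted p = 0.007). In p53ERTAM tumors the change was 0.30 (SE 0.162, adjusted p = 0.281). Under combo the vectors differed by 1.15 (SE 0.166, adjusted p = 0.00015), and with vehicle by 0.20 (adjusted p = 0.361).

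Il1b (chr2:129364570-129371139, minus strand) encodes the precursor of interleukin-1β, which NF-κB signalling induces before an inflammasome acts. Il1b reached 19.4, 28.5 and 11.2 CPM in EV vehicle, 12.8, 19.2 and 12.5 in EV combo, 18.5, 29.0 and 29.2 in p53ERTAM vehicle, and 34.8, 28.9 and 31.6 in p53ERTAM combo. EV vehicle tumors spread the most, from 11.2 to 28.5 CPM, and the p53ERTAM groups overlapped each other. Only the difference between vectors under combo passed among the 5 comparisons, at 0.99 on the log2 scale (SE 0.291, adjusted p = 0.0154). Combo itself gave -0.40 in EV (adjusted p = 0.293) and 0.28 in p53ERTAM tumors (adjusted p = 0.585). The antisense gene Il1bos shares 25 of the 1907 exon bases.

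Il18 (chr9:50554827-50581840, plus strand) encodes interleukin-18, which drives interferon-γ from T and NK cells. Values were 0.434, 1.08 and 0.294 CPM in EV vehicle, 0.0599, 0.624 and 0.625 in EV combo, 0.462, 0.371 and 0.532 in p53ERTAM vehicle, and 1.17, 1.19 and 1.72 in p53ERTAM combo. These levels rest on 1 to 42 counts a library. The p53ERTAM combo tumors lay above all others, yet no comparison passed by edgeR: combo in p53ERTAM gave 1.52 (SE 0.655, adjusted p = 0.17), the vectors under combo 1.53 (SE 0.66, adjusted p = 0.0745) and the interaction 2.003 (SE 0.943, adjusted p = 0.113). By limma-voom with quality weights the difference between vectors under combo was 2.01 and passed (adjusted p = 0.0152).

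In 7 of the 9 genes (all but Pycard and Il1b) the lowest p53ERTAM combo tumor exceeded all 9 other tumors in CPM. Among all genes tested 8.95% did so. This count was chosen after the values were seen, and all 9 genes come from the same 12 tumors.

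**Figure D2:**
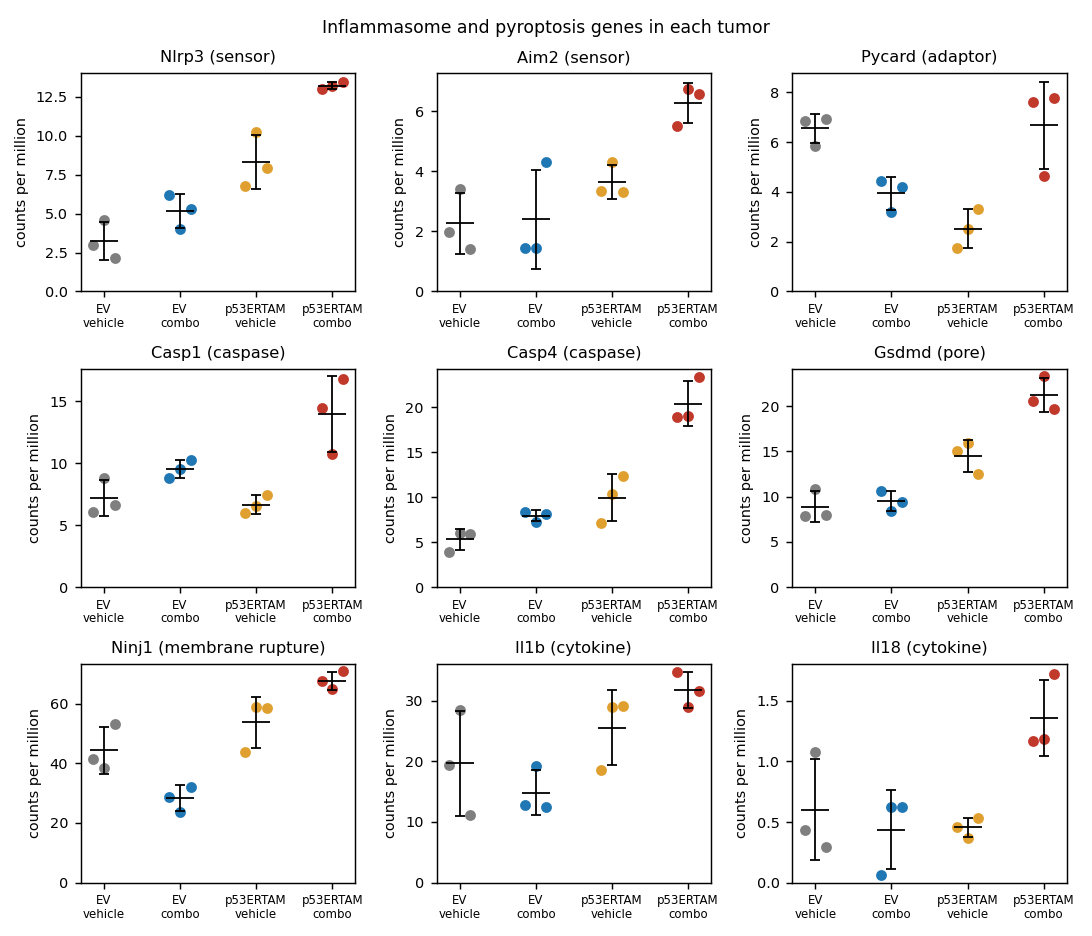
CPM (y axes, each from 0) of the 9 genes in each tumor, with 4 groups on the x axis; points are tumors, horizontal bars are means and whiskers are SD (n = 3). Gsdmd lies between 7.81 and 10.9 in the EV tumors and between 12.5 and 23.3 in the p53ERTAM tumors, and Pycard is lowest in p53ERTAM vehicle.

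Per transcript length the genes differed widely. In TPM (counts over summed exon length, scaled to 1000000 in a library), Ninj1 was the highest of the 9 in every group, at 91.7 ± 17.9 in EV vehicle, 65.8 ± 9.56 in EV combo, 101.5 ± 14.8 in p53ERTAM vehicle and 139 ± 5.03 in p53ERTAM combo (SD, n = 3), and its range did not overlap that of the next gene. Il1b came next, at group means of 28.6 to 53.8 TPM, and overlapped its lower neighbour in both EV groups but in neither p53ERTAM group. Gsdmd (16.2 to 38.6 TPM) and Casp1 (13.3 to 30.1 TPM) followed, and their ranges overlapped in every group but p53ERTAM vehicle, where Gsdmd was higher.

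Casp4 (4.63 to 17.7 TPM) lay above Nlrp3 (2.58 to 10.5 TPM) without overlap in both combo groups, and overlapped it in both vehicle groups. Pycard was the fifth gene in order in EV vehicle (5.60 TPM), the seventh in EV combo (3.803 TPM) and the eighth in p53ERTAM vehicle (1.98 TPM) and combo (5.67 TPM). Il18 (1.33 to 4.25 TPM) was the lowest in every group, and Aim2 (2.10 to 5.80 TPM) came just above it in the EV groups and just above Pycard in the p53ERTAM groups. The 3800 exon bases summed for Pycard make its TPM low for a given count. Set among 13911 tested protein-coding genes by mean TPM over the 12 tumors, Ninj1 stood at percentile 89.3, Il1b at 68.1, Gsdmd at 54.6, Casp1 at 49.6, Casp4 at 31.9, Nlrp3 at 24.6, Pycard at 20.6, Aim2 at 17.8 and Il18 at 14.2. The sensors were thus in the lower part of the range and the rupture protein in the upper part. The place of the adaptor depends on its summed exon length, so its low percentile does not show that its RNA was scarce.

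TPM between groups depends on what a library is scaled to. Scaled over protein-coding genes alone, the order of genes within a library stays, but group levels rose by a mean factor of 1.26 in EV vehicle, 1.51 in EV combo, 1.57 in p53ERTAM vehicle and 1.31 in p53ERTAM combo, and 30 of the 36 levels moved by more than 1 SD. Gsdmd in p53ERTAM vehicle went from 24.2 to 38.2 TPM and Nlrp3 there from 6.03 to 9.61. Of 54 orders between a pair of groups, 2 turned: Il1b in EV vehicle against EV combo went from 33.3 against 28.6 to 42.2 against 43.02, and Casp1 in EV vehicle against p53ERTAM vehicle from 15.5 against 13.3 to 19.6 against 20.6. Neither difference passed the test on counts.

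**Figure D3:**
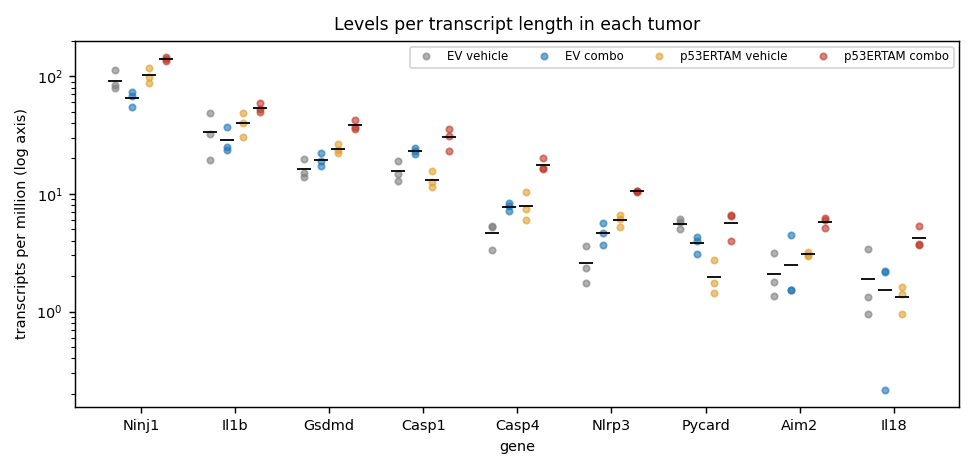
TPM on a log axis for the 9 genes (x axis, from high to low mean) in each tumor, scaled over all genes, coloured by group, with black bars at group means. Ninj1 is above the other genes in every group, and Aim2 and Il18 lie at the bottom.

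Around these 9 genes, 87 further genes of the pathway were grouped into 7 lists, of which 73 passed the filter. Combo in p53ERTAM tumors raised 17 of the 73 and lowered none (23.3% called, median log2 fold change 0.45), whereas combo in EV tumors raised 1 and lowered 24 (34.2%, median -0.14). Between vectors 5 were higher and 16 lower in p53ERTAM with vehicle (28.8%, median -0.20), and 37 higher and 4 lower with combo (56.2%, median 0.75). The interaction was positive in 36 and negative in none (49.3%, median 0.69). The shares for all genes given above, 6.28%, 39.9%, 37.8%, 44.1% and 36.0%, are the yardstick for these. The split depends on the scaling and on 1 library: combo in EV tumors gave 3 higher and 16 lower with protein-coding genes only, and 7 higher and 18 lower without EV vehicle replicate 2. Of the 13911 protein-coding genes in the test over all genes, 1943 were higher and 3505 lower in that comparison. Between vectors with vehicle it went to 8 higher and 14 lower with protein-coding genes only. Of the 13911 protein-coding genes in the test over all genes, 2187 were higher and 3406 lower in p53ERTAM with vehicle. With combo 3705 of them were higher and 2714 lower. The lean to lower with vehicle was thus shared by protein-coding genes at large. The interaction went to 27 positive and none negative with protein-coding genes only. Of the 13911 protein-coding genes in the test over all genes, 3207 had a positive and 1629 a negative interaction (median 0.23). Of the 17 calls with combo in p53ERTAM tumors, 5 were left without p53ERTAM vehicle replicate 1, 5 without replicate 2, 3 without p53ERTAM combo replicate 1 and 5 without replicate 3.

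The interferon-inducible GTPases and transcription factors that serve the noncanonical inflammasome made up most of those 17. Guanylate-binding proteins and IRG proteins of this list act on bacterial and vacuole membranes and help to bring lipopolysaccharide to caspase-11. With combo in p53ERTAM tumors 10 of 12 rose (median 1.91), among them Gbp5 by 2.51 (SE 0.345, adjusted p = 0.00417) and Gbp3 by 2.27 (SE 0.392, adjusted p = 0.0124). In EV tumors 0 of 12 passed (median 0.00), and with protein-coding genes only 1 of 11 was higher (median 0.27). EV vehicle tumors spread widely in GTPases such as Gbp2 (9.80 ± 8.62 CPM, SD), Igtp (15.95 ± 13.05) and Gm12250 (3.49 ± 3.38). The spread was smaller in Irf2 (71.95 ± 5.26). The lack of calls in EV tumors thus does not show that these genes did not respond there. The interaction passed in 10 of 12 (median 1.97), and under combo 11 of 12 were higher and 1 lower in p53ERTAM tumors, with Gbp5 at 1.92, Irgm2 at 1.80 and Gbp7 at 1.74. With vehicle 1 was higher, Irf8 (0.88, adjusted p = 0.0358), and 2 were lower, Irf2 (-0.36) and Irgm1 (-0.76). Close relatives among these GTPases share sequence, so reads of one may be counted for another.

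ESCRT proteins bud damaged membrane away and so repair gasdermin pores. Of the 11 genes in that list, which also holds the Ninj1 relative Ninj2, 10 fell with combo in EV tumors (median -0.53; 9 of 11 with protein-coding genes only), with Chmp1a at -0.77 (SE 0.128, adjusted p = 0.000696), Chmp3 at -0.57 and Chmp4b at -0.53. In p53ERTAM tumors only Chmp2a passed, at 0.66 (SE 0.164, adjusted p = 0.0338). The interaction passed in 10 of 11. With vehicle 7 of 11 were lower in p53ERTAM, led by Chmp2a (-1.05), Vps4b (-0.44) and Chmp2b (-0.62), and under combo 6 were higher, among them Chmp1a (0.95) and Chmp4b (0.59), a count that was 4 with DESeq2 size factors and 4 higher with 1 lower with protein-coding genes only. Ninj2 had 0 counts in the EV combo libraries against 37 in the p53ERTAM combo libraries. The mean CPM of the latter was 8.57 times a floor of 3 counts over the EV combo group. This ratio is not a strict lower bound. Both mates of a pair may be counted, and the error of the 37 counts is not included. The list's median under combo was 0.26. It could not move with Ninj2 at that ratio, because Ninj2 stays above the median.

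Among the other sensors 7 of 10 could be tested. Naip2, which recognises parts of bacterial secretion systems, rose with combo in p53ERTAM tumors by 1.70 (SE 0.4, adjusted p = 0.0293), and under combo p53ERTAM tumors exceeded EV tumors in Naip2 (1.47) and Naip5 (1.58). No sensor of this list passed with combo in EV tumors or between vectors with vehicle. Regulators of the inflammasome were mixed. Txnip, a thioredoxin-binding protein that can bind NLRP3, changed by -0.47 in EV (adjusted p = 0.0225) and by 0.82 in p53ERTAM tumors (adjusted p = 0.0121) with combo, and the NLRP3 partner Nek7 by -0.64 in EV tumors (adjusted p = 0.000882). P2rx7, the ATP-gated channel upstream of NLRP3, was higher in p53ERTAM tumors by 0.77 with vehicle and 0.93 with combo, while Brcc3, a deubiquitinase acting on NLRP3, was lower by -0.999 and -0.93.

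The other gasdermins were scarce. Gsdme averaged 1.19 CPM in EV vehicle, 1.004 in EV combo, 1.75 in p53ERTAM vehicle and 2.45 in p53ERTAM combo, and passed in no comparison. The Gsdma and Gsdmc genes had at most 22 counts in a library and were not tested. Casp8, a protease that can cut gasdermins, fell with combo in EV tumors, with a log2 fold change of -0.46 (SE 0.107, adjusted p = 0.00467), and its interaction passed (0.64).

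In the IL-1 family Il18bp, the soluble binder of interleukin-18, rose with combo in both vectors, by 1.35 in EV (SE 0.261, adjusted p = 0.00167) and 1.42 in p53ERTAM tumors (SE 0.26, adjusted p = 0.013). It was the 1 gene of the 73 that rose in EV tumors. Il1r2, the decoy receptor for interleukin-1, fell with combo in EV tumors (-1.34, adjusted p = 0.000924). It was higher in p53ERTAM than EV tumors with vehicle by 0.83 (SE 0.219, adjusted p = 0.00978) and with combo by 2.64 (SE 0.238, adjusted p = 6.14e-06). Il18rap, a chain of the interleukin-18 receptor, was higher in p53ERTAM tumors under both treatments (1.43 with vehicle, 1.84 with combo). Among the genes of priming, the receptors Tlr2 (1.32, adjusted p = 0.00729) and Tlr4 (1.10, adjusted p = 0.0168) rose with combo in p53ERTAM tumors, and Cd14 (-0.91), Ticam1 (-0.67) and Rela (-0.36) were among the 4 of 11 that fell in EV tumors.

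**Figure D4:**
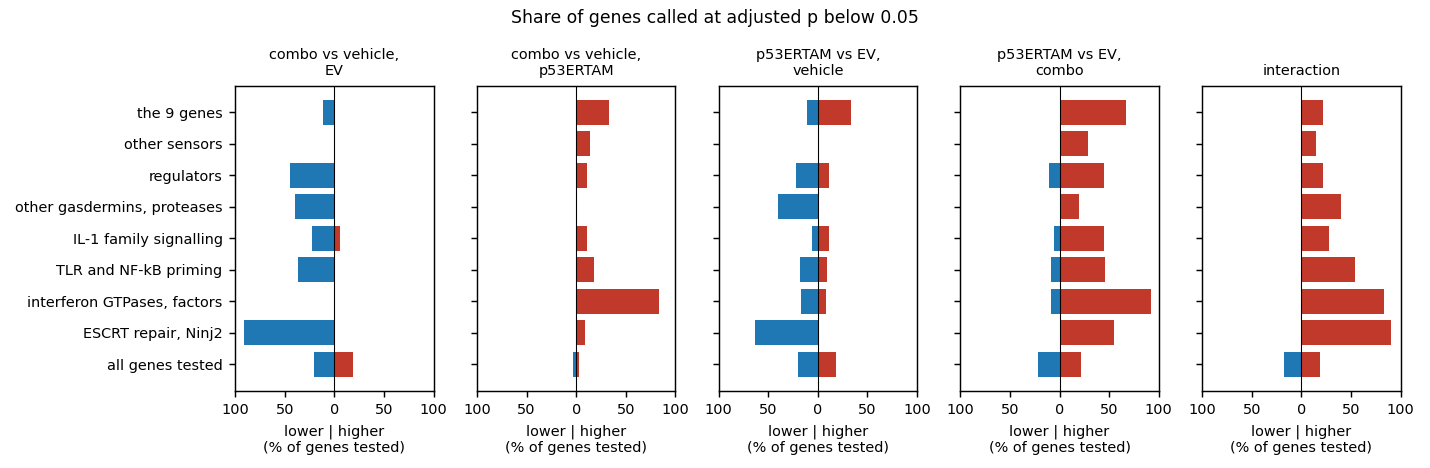
Share of tested genes called higher (red, to the right) or lower (blue, to the left) at adjusted p below 0.05, in percent, for the 9 genes, the 7 pathway lists and all genes tested in the 5 comparisons. The interferon GTPase list reaches 10 of 12 with combo in p53ERTAM tumors, and the ESCRT list 10 of 11 in the lower direction in EV tumors.

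Of the immune cell markers, those of macrophages and monocytes moved most clearly with the same groups. With combo in p53ERTAM tumors 1 of 6 tested dendritic cell markers rose. None of the 9 T cell, 3 NK cell, 2 B and plasma cell or 6 neutrophil markers tested was called there. Under combo 5 of the 9 T cell, 2 of the 6 dendritic cell and 2 of the 6 neutrophil markers were higher in p53ERTAM than EV tumors. In bulk tumors, more cells of a type and more RNA per cell cannot be told apart. The marker sums here and below, those of epithelium included, are in TPM over all genes. Scaling over protein-coding genes raises levels by 1.26 in EV vehicle, 1.51 in EV combo, 1.57 in p53ERTAM vehicle and 1.31 in p53ERTAM combo. Differences between groups in these sums therefore depend on the scaling. The 12 macrophage and monocyte markers summed to 3185 to 4423 TPM in p53ERTAM tumors with combo and 1202 to 1558 with vehicle, against 921 to 1327 in EV tumors with combo and 703 to 1539 with vehicle. Of these 12 genes, 9 rose with combo in p53ERTAM tumors (median 1.32), led by C1qa (1.61) and C1qc (1.53), none passed with combo in EV tumors, and 10 were higher in p53ERTAM than EV tumors under combo (median 1.65). With vehicle 2 of 12 were higher in p53ERTAM, Itgam by 1.56 and Mertk by 1.21. Of all genes 3.30%, 22.1% and 17.9% were called higher with combo in p53ERTAM tumors, between vectors under combo and between vectors with vehicle. Over all genes, calls with combo in p53ERTAM tumors fell from 1129 to between 77 and 183 without any 1 of 4 libraries. Marker calls of that comparison, those below included, were not rerun with libraries left out. No macrophage marker was at 0 in any group.

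Dendritic cell markers summed to 64.8 to 71.8 TPM in p53ERTAM combo and 16.7 to 34.7 in the other groups. T cell markers summed to 43.0 to 51.0 TPM in p53ERTAM tumors with combo and 18.5 to 25.2 with vehicle, and in EV tumors to 8.27 to 19.2 with combo and 11.9 to 78.7 with vehicle, where 1 tumor was far above the others. The 8 neutrophil markers did not follow this order, at 135 to 158 TPM in p53ERTAM combo and 85.9 to 224 elsewhere, with Ly6g at 0 in EV combo and Camp at 0 in p53ERTAM vehicle. Epithelial markers summed to 4592 to 5974 TPM in EV tumors with vehicle and 3383 to 4249 with combo, and to 2143 to 3195 and 3139 to 3985 in p53ERTAM tumors. Of the 10 epithelial genes 8 were lower in p53ERTAM tumors under vehicle, and 4 fell with combo in EV tumors. The basal keratins Krt14 (log2 fold change -2.13, adjusted p = 0.00417) and Krt5 (-2.40, adjusted p = 0.0468) fell with combo in p53ERTAM tumors. Under combo these 2 were lower in p53ERTAM than EV tumors (-4.00 and -5.35). The rest of the list did not follow them. No other epithelial gene was called with combo in p53ERTAM tumors, where the list's median was 0.07. Under combo 2 of the 10 were higher and 3 lower in p53ERTAM than EV tumors. The interaction was positive in 5 and negative in 2.

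The fibroblast markers summed to 206 to 218 in EV vehicle and 442 to 1302 elsewhere. Endothelial markers summed to 20.0 to 40.1 TPM in the EV tumors with vehicle and 44.8 to 87.7 with combo, and to 57.1 to 89.3 with vehicle and 76.0 to 116 with combo in the p53ERTAM tumors. Of these 6 genes 3 rose with combo in EV tumors, and 4 under vehicle and 3 under combo were higher in p53ERTAM tumors. Erythroid markers were lowest in p53ERTAM combo, at 0.619 to 1.05 TPM against 21.2 to 30.5 in p53ERTAM vehicle and 2.42 to 14.95 in the EV groups. All 3 tested fell with combo in p53ERTAM tumors (median -4.86), and Hba-a1 and Hba-a2 were at 0 in both combo groups. NK cell markers summed to 4.65 to 9.53 TPM in p53ERTAM combo and 0.337 to 5.51 elsewhere, so the ranges overlapped. Those of B and plasma cells summed to 9.16 to 17.3 TPM with combo and 0.466 to 3.82 with vehicle in p53ERTAM tumors, and to 2.11 to 3.08 with combo and 2.29 to 263 with vehicle in EV tumors. The 263 TPM came from EV vehicle replicate 2 alone, while replicates 1 and 3 were at 4.78 and 2.29. The same tumor had the highest sum of T cell markers (78.7 TPM). The part of these markers in the levels of the 9 genes was not tested.

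**Figure D5:**
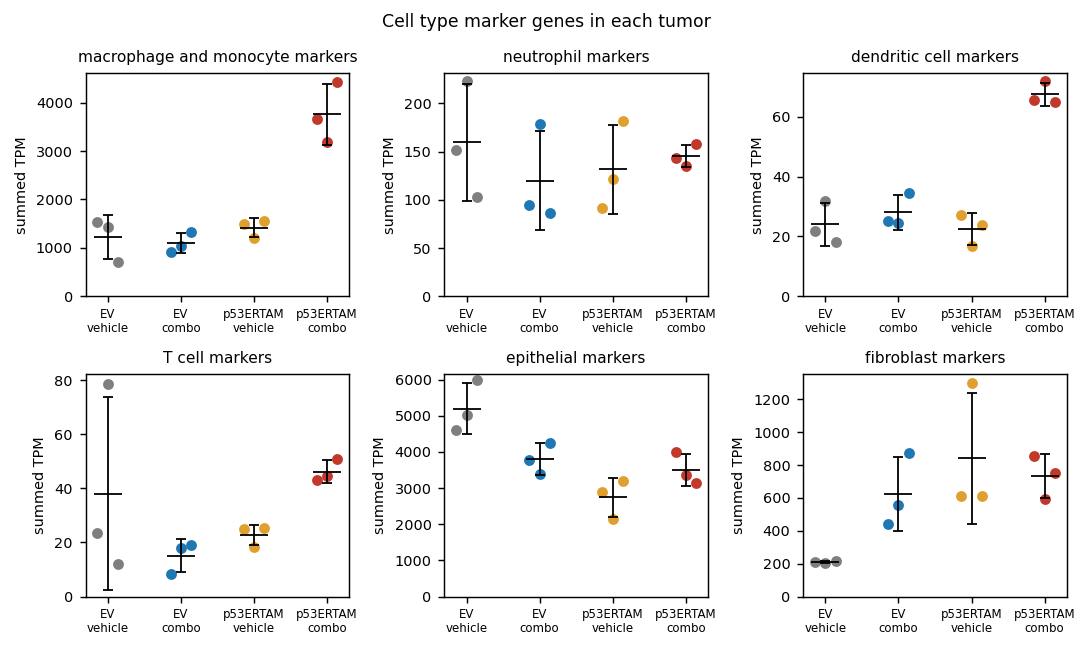
Summed TPM (y axes, each from 0) of 6 marker lists in each tumor by group; points are tumors, horizontal bars means and whiskers SD (n = 3). Macrophage and dendritic cell markers are highest in p53ERTAM combo, neutrophil markers overlap between all groups, and fibroblast markers are lowest in EV vehicle.

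Over the 12 tumors, the genes with the pattern most like each of the 9 were found by Pearson r of log2(TPM + 0.1) among 12825 protein-coding genes. The points share libraries and groups, so these values are descriptions, given beside r after the group means were subtracted. Nlrp3 was followed most closely by Ppp1r18 (r = 0.983, then 0.872), Bach1 (0.982, then 0.905) and the matrix metalloproteinase gene Mmp13 (0.980, then 0.931). Aim2 went with Trpv2 (0.968, then 0.943), Kcna3 and Papss2, and Il18 with the cytokine receptor gene Il2rb (0.974, then 0.971), Nat2 and the cytotoxic granule gene Nkg7 (0.919, then 0.969), though Il18 has few counts.

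Casp1 went with Birc3 (0.928, then 0.745), Tln1 and the interferon factor Irf1 (0.915, then 0.615), and Casp4 with Reck (0.968, then 0.806), Map3k8 and Pla1a. Pycard went with the glyoxalase gene Hagh (0.967, then 0.922), Tmem126a and Rnf130. Gsdmd was closest to the receptor kinase gene Axl (0.968, then 0.755), Brd2 and Gpc6. Ninj1 was closest to the metallothionein gene Mt1 (0.974, then 0.874), Adgrf1 and Pdk2, and Il1b to Galnt6 (0.947, then 0.939), Pdcd1 and Aldh1b1. The neighbouring caspases Casp1 and Casp4 were not among each other's candidates because the 9 genes were left out of this search.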

How the data were processed

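Libraries of 12 tumors were made from total RNA (Direct-zol) by a stranded kit with ribosomal RNA removed, per the labels' protocols. The submitters' processing notes name fastp, FastQC, STAR, featureCounts and GRCm38.p5; the strand setting is not given in the sources used here. Each deposited file gives raw, unnormalized counts for every gene beside its summed exon length, per the file headers. Even numbers made up 66.3 to 71.7% of the counts from 1 to 20 and 49.2 to 52.1% of those over 200, a pattern seen where both mates of a pair are counted. Symbols were matched for 52403 of 52636 identifiers.

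Groups came from the sample titles. Of 31622 genes with a count, 17970 passed edgeR's filterByExpr, which kept at least 99.85% of counts. edgeR 4.0.16 in R 4.3.3 (TMM factors 0.941 to 1.055, robust quasi-likelihood F-test, 1 fit of 4 group means, 8 residual degrees of freedom) gave 5 contrasts, with p-values adjusted by Benjamini-Hochberg over all 17970 genes. CPM and TPM were computed from the counts over all genes, without TMM factors. The test was first run on simulated data. Alternatives were DESeq2 1.42.0, limma-voom (limma 3.58.1), other filters and scalings, only the groups compared, a replicate block and each library left out.

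The 9 genes, the pathway lists and the marker lists were chosen with earlier results of these data known. From each pathway list up to 3 genes, and from each marker list up to 2, with the smallest p among those called in a comparison could be named; likeness used the 3 genes of highest r. Gsdme, Ninj2, Epcam and the receptor genes of the triple-negative label are named besides, and were chosen outside that rule. Some genes the rule selects are not reported here. Promoter sequences are from RefSeq (GRCm38.p6).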

Additional observations from a re-analysis of the deposited data

Results flagged for a closer look

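By the interaction test 2 of the 9 genes and 36 of the 73 pathway genes passed, all with a positive difference. Protein-coding genes leaned the same way: of the 13911 tested, 3207 passed as positive and 1629 as negative. With protein-coding genes only in the fit, 27 of the pathway genes passed, none of them negative. Given here are the 2 of the 9 genes and, from each pathway list, up to 3 of the smallest p, 18 in all. For these a tested difference between vectors in the effect of combo singled the result out (interaction, edgeR's quasi-likelihood test, adjusted p below 0.05). Each value is the log2 fold change with combo in p53ERTAM tumors minus that in EV tumors, and over all genes tested 36.0% passed. Among the 9 genes these were Pycard (2.10) and Ninj1 (0.95). Pycard was higher with combo in p53ERTAM tumors, while in EV tumors the change was -0.73 and did not pass, and Ninj1 was lower with combo in EV tumors, while in p53ERTAM tumors the change was 0.30 and did not pass.

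Among sensors and regulators they were Naip2 (1.79), Txnip (1.29) and Nek7 (0.86), and among proteases Casp8 (0.64). In the IL-1 family the receptor antagonist Il1rn (2.23), the decoy receptor Il1r2 (1.81) and the adaptor Myd88 (0.95) passed, and among priming genes Tlr2 (1.25), Tlr4 (1.22) and Ticam1 (0.83). The interferon-inducible GTPases Gbp3 (2.41), Irgm2 (2.30) and Gbp5 (2.28) and the ESCRT genes Chmp2a (1.29), Vps4a (1.13) and Chmp4b (0.81) passed too. EV combo enters each of them, and its library make-up cannot be told apart from the group.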

How the results depend on the processing

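Of 45 differences of the 9 genes (9 genes in 5 comparisons), 16 passed; none of these changed sign under any alternative run, 9 passed under all of them, and 7 lost their call under at least one, as given above. Of the 29 others, 8 passed under at least one alternative and 6 changed sign. The number of the 9 genes called went for combo in EV tumors from 1 to 3 with DESeq2 and to 3 with protein-coding genes only (Casp4 and Nlrp3 added), for combo in p53ERTAM tumors from 3 to 6 with voom, and for the vectors under vehicle from 4 to 2 with only the groups compared. Calls over all genes moved as well. For combo in EV tumors they went from 7169 to 7605 with DESeq2, and the run on protein-coding genes only called 4991. For combo in p53ERTAM tumors they went from 1129 to 3748 with voom. Between vectors under vehicle they went from 6784 to 4541 with only the groups compared. With single libraries left out these counts ranged from 1 to 2, 0 to 3 and 3 to 4, and they ranged from 4 to 6 between vectors under combo and 2 to 3 for the interaction. Pathway genes called with combo in p53ERTAM tumors went from 17 to 32 with voom and ranged from 3 to 22 with single libraries left out.

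Sign changes were all in values that did not pass. By voom they were Aim2 for combo in EV tumors (-0.25), Il1b between vectors under vehicle (-0.045) and the Nlrp3 interaction (0.23). With a library left out, the values of the other changed results ran for combo in EV tumors from -0.014 to 0.28 for Gsdmd, -0.62 to 0.52 for Aim2 and -0.83 to 0.26 for Il18, from -0.76 to 0.26 for Il18 between vectors under vehicle, and from -0.39 to 0.14 for the Nlrp3 interaction. The cause was not tested. Protein-coding genes only moved the median log2 fold change of all shared genes by 0.13 for combo in EV tumors, -0.11 between vectors under combo and -0.18 for the interaction.

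Replicate numbers showed no clear pairing of the samples, though groups of 3 cannot decide this. Same-numbered samples correlated at -0.149 to 0.211 in their deviations from group means, over 0.1 in 2 of 18 pairs. Samples with different numbers correlated at -0.262 to 0.152, over 0.1 in 4 of 36 pairs. The 2 same-numbered pairs over 0.1 joined p53ERTAM vehicle with p53ERTAM combo, for replicate 2 (0.129) and replicate 3 (0.211). With a replicate block the 9 genes gave 1, 3, 4, 6 and 2 calls in the 5 comparisons, and the pathway genes 23, 18, 20, 38 and 34. Depth limits Il18 most, at 1 to 42 counts a library.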
